A study of Mus musculus with 12 samples.

Results

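The transcripts of 32 proteasome subunit genes were followed through MIWI immunoprecipitates (IP) and the matching input RNA from mice, with late spermatocytes as the labelled cell type. The genes were taken by Ensembl ID from a fixed list that spans Psma1 to Psma8, Psmb1 to Psmb7, Psmc1 to Psmc6 and 11 Psmd genes. All 32 were found among the 20345 genes of the deposited table, and all 32 were among the 12246 that reached 1 RPKM in 2 columns or more and were kept for comparisons. RPKM is a level corrected for the length of the gene and the number of reads, so different genes can be set side by side. Their names come from that list, since the table itself gives IDs without symbols.

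MIWI is a PIWI-clade Argonaute protein that binds piRNAs in meiotic and post-meiotic male germ cells. The 12 samples cover IP and input RNA, depleted of ribosomal RNA, from Miwi +/-, Miwi ADH/- and Miwi -/- mice, with 2 samples in each of the 6 groups. Miwi +/- mice keep an intact allele beside the null allele, Miwi ADH/- mice carry the ADH allele (known as a mutation of the catalytic site) beside the null allele, and Miwi -/- mice have the null allele only, so a null allele is shared by every group. The Miwi -/- IP recovers RNA in the absence of MIWI and is the background of the IP. The RNA is described as taken from testes or from sorted cells without saying which sample was which, and no age of the mice was given in the sources used here. Each group has 1 column of values in the table, so no difference in this account has a replicate check, and the intervals printed beside ratios are exact 95% intervals of counting error between single columns. They compare libraries and not genotypes. In RNA from many cells, fewer cells of a type and less RNA per cell cannot be told apart.

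The proteasome is the large protease that degrades proteins tagged with ubiquitin. Its core particle is a barrel of stacked rings: the outer alpha rings, made of Psma subunits, gate the entry, and the inner beta rings, made of Psmb subunits, hold the protease sites, which sit in Psmb5, Psmb6 and Psmb7. A regulatory particle caps the barrel, with a ring of Psmc ATPases that unfold substrates and Psmd subunits that bind ubiquitin chains (Psmd4), remove them (Psmd14) or form the scaffold. Psma8 is the germ-cell paralogue of Psma7 and takes its place in the alpha rings of spermatocytes, where the complex is needed for meiosis.

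Promoter sequences are shown for 4 genes around which the levels below turn: the catalytic subunits Psmb5 and Psmb6, which lie far apart in level, and Psmc6 and Psma7, which have the 2 lowest means over the inputs. RefSeq promoters on build GRCm38.p6 could be matched by symbol for 25 of the 32 genes. The 120 bases before the annotated start are given 5′ to 3′, with capitals for any match to TGACNNNGC (the core of the antioxidant response element) or to CCGGAAG (a core bound by ETS factors), searched on both strands. The Psmb5 promoter is chr14:54617996-54618115 on the minus strand, that of Psmb6 is chr11:70525237-70525356 on the plus strand, that of Psmc6 is chr14:45329704-45329823 on the plus strand and that of Psma7 is chr2:180042465-180042584 on the minus strand.
Psmb5: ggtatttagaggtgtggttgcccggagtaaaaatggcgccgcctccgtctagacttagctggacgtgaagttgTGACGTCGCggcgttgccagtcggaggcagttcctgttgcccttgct
Psmb6: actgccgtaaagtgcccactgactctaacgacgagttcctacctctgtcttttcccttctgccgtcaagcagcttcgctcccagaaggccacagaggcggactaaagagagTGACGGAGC
Psmc6: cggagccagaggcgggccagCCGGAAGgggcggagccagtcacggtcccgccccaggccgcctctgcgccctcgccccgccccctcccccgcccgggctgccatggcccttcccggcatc
Psma7: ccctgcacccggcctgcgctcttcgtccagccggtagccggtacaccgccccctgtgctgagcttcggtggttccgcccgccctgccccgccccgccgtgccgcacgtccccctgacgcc

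Over the full 250 bases before the start, TGACNNNGC was present in 4 of the 25 matched members (16%), namely Psmb5, Psmb6, Psmc6 and Psmd12, and in 10.1% of all 27025 promoters of that length. CCGGAAG was present in 8 of the 25 (32%), all of them genes of the regulatory particle (Psmc1, Psmc2, Psmc6, Psmd2, Psmd4, Psmd6, Psmd11 and Psmd12), and in 7.05% of all promoters. The search did not cover Psma8, Psmb1, Psmb2 and Psmb7 of the core particle, nor Psmc3, Psmd3 and Psmd7, which had no matched promoter. Psmc6 and Psmd12 hold both patterns, at places that do not overlap. Neither count is a measure of binding, and the absence of these letters from the Psma7 window says nothing about the factors.

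The columns hold from 2627634 to 3918947 reads in listed genes for the inputs and 1725558, 3706479 and 761525 for the Miwi +/-, Miwi ADH/- and Miwi -/- IPs. The Miwi -/- IP is the shallowest, with 7305 genes at or above 1 RPKM against 9942 to 11602 in the other columns, and the median of all kept genes was 1.62 RPKM there against 4.14 and 5.06 in the other IPs. IP and input columns differ in total, so each difference is set beside the median over all kept genes. No source used here says how the authors assigned reads shared by near-identical copies. That leaves Psma7 and Psma8, and members with processed pseudogenes, uncertain to that extent.

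In the input, the subunits of one complex had transcript levels that differed widely. The median member stood at 50.5 RPKM (Miwi +/-), 36.8 (Miwi ADH/-) and 49.6 (Miwi -/-), against 7.37, 6.90 and 6.58 RPKM for all kept genes. Together the 32 genes took 0.574% of listed reads in the Miwi +/- input (0.567 to 0.582), 0.535% in the Miwi ADH/- input (0.526 to 0.544) and 0.569% in the Miwi -/- input (0.561 to 0.576; exact binomial 95% intervals). The order of members was similar between genotypes: over the 32 genes, the inputs correlated at r = 0.948 (Miwi +/- with Miwi ADH/-), 0.972 (Miwi +/- with Miwi -/-) and 0.945 (Miwi ADH/- with Miwi -/-), as a description of genes that share these 3 columns.

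Psmc3 (ENSMUSG00000002102), an ATPase of the regulatory particle, was the highest member in every input, at 594 RPKM (Miwi +/-), 470.4 (Miwi ADH/-) and 577 (Miwi -/-). The other ATPase genes were far below it: Psmc6 (ENSMUSG00000021832) had 13.2, 11.1 and 12.01 RPKM in the same order, and the remaining 4 lay between 19.8 and 61.3 RPKM. Messages for subunits of the same ring thus spanned from the top of the list to the next to last rank. Ranked by the mean of the inputs, Psmc3 (547 RPKM) was followed by Psmb6 (249 RPKM), Psmd2 (186 RPKM), Psma8 (163 RPKM), Psmb1 (139 RPKM), Psma6 (129.6 RPKM), Psmd8 (123 RPKM) and Psmd4 (112 RPKM).

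The catalytic beta subunits were unequal as well. Psmb6 (ENSMUSG00000018286), the caspase-like subunit, had 239.9, 273 and 235 RPKM in the Miwi +/-, Miwi ADH/- and Miwi -/- inputs. Psmb7, the trypsin-like subunit, had 99.0, 89.9 and 110.2 RPKM, and Psmb5 (ENSMUSG00000022193), the chymotrypsin-like subunit, had 24.0, 22.1 and 17.4 RPKM. The order Psmb6, Psmb7, Psmb5 held in all 3 inputs. Of the structural beta subunits, Psmb1 (99.0 to 184 RPKM) and Psmb4 (87.6 to 102 RPKM) lay well above Psmb2 (31.0 to 35.8 RPKM) and Psmb3 (13.3 to 21.1 RPKM).

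Among the other regulatory particle genes, Psmd2, a large scaffold subunit, had 210.4, 138 and 208 RPKM in the Miwi +/-, Miwi ADH/- and Miwi -/- inputs. Psmd8, a lid subunit, had 116, 118 and 134 RPKM, and the ubiquitin receptor Psmd4 had 126, 85.8 and 123 RPKM. The lowest was Psmd3 (ENSMUSG00000017221), another lid subunit, at 18.3, 6.66 and 12.9 RPKM. At the bottom of the whole list, Psma1, Psma2, Psmd3, Psmc6 and Psma7 had input means of 13.4, 14.3, 12.6, 12.1 and 10.9 RPKM, and their ranges over the 3 inputs overlap for every pair but Psma2 and Psmc6, so their order is mostly not settled.

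**Figure D1:**
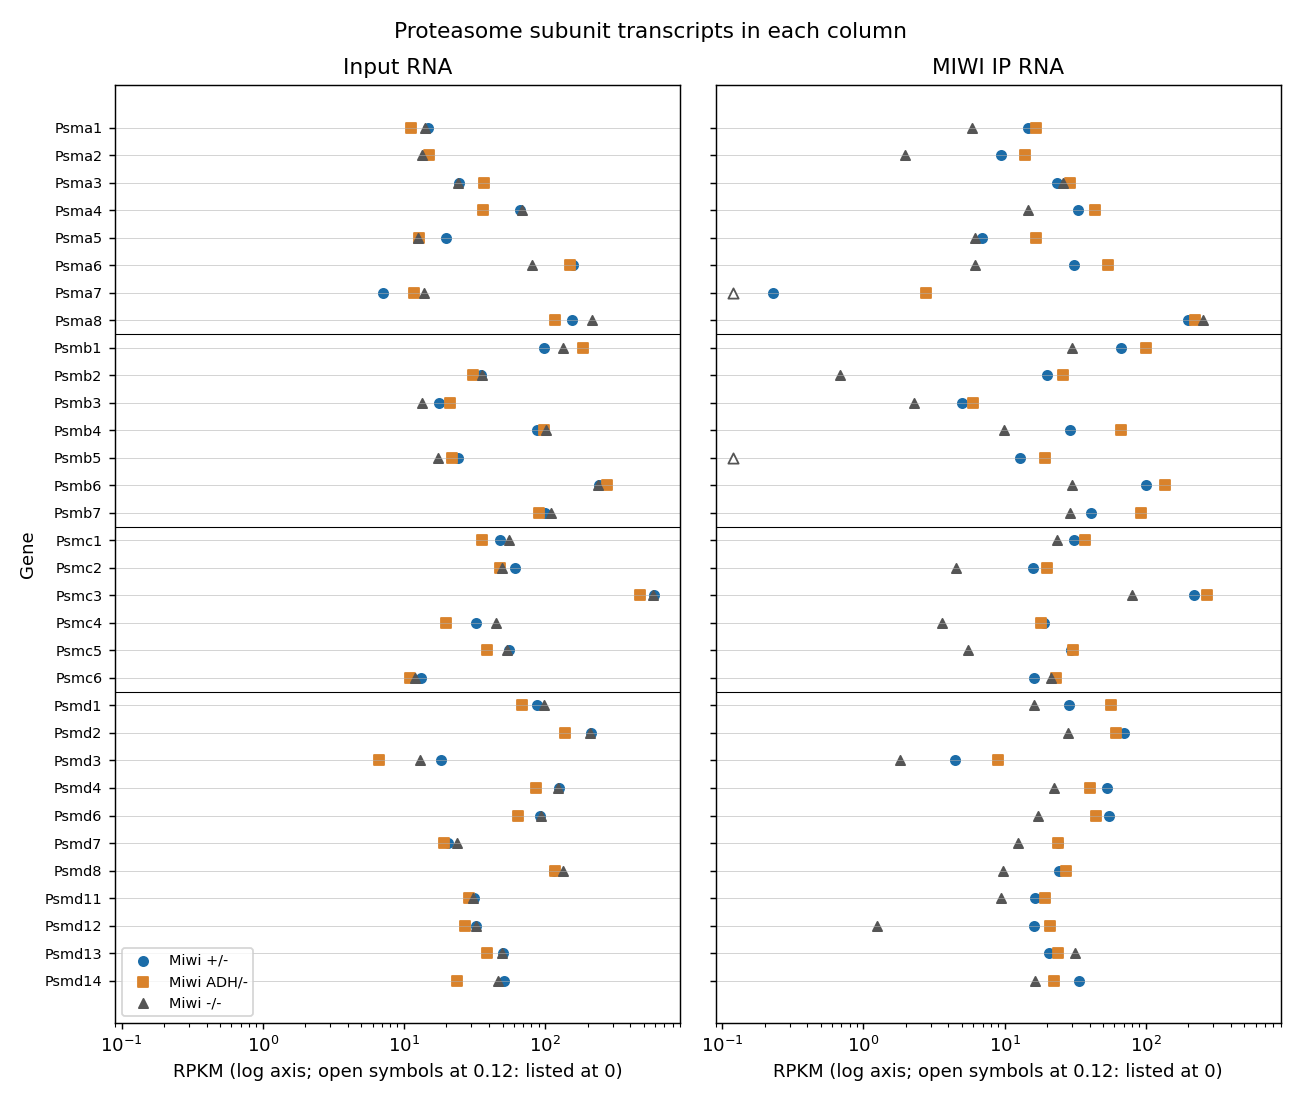
RPKM of each of the 32 genes (rows, grouped into alpha ring, beta ring, ATPase ring and other regulatory particle genes by horizontal lines) in the 3 inputs (left) and the 3 MIWI IPs (right), on a log axis, with 1 symbol per column and genotype and no error bars since each group has 1 column. Psmc3 lies farthest right among the inputs, while in the IP panel the Miwi -/- triangles lie left of the other symbols for most genes but not for Psma8.

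In the alpha ring, the spermatocyte subunit was far above the paralogue it replaces. Psma8 (ENSMUSG00000036743) had 155, 118 and 215 RPKM in the Miwi +/-, Miwi ADH/- and Miwi -/- inputs, from 1502, 837 and 1972 reads. Psma7 (ENSMUSG00000027566) had 7.15, 11.7 and 13.95 RPKM from 40, 48 and 74 reads. Psma8 was thus 21.7 times as high as Psma7 per length in the Miwi +/- input (15.9 to 30.6), 10.1 times in Miwi ADH/- (7.54 to 13.8) and 15.4 times in Miwi -/- (12.2 to 19.7). Psma8 was the highest alpha ring gene in the Miwi -/- input, but in the Miwi +/- and Miwi ADH/- inputs it lay below Psma6, which had 158 and 149.9 RPKM there and 80.8 in Miwi -/-. The other alpha ring genes were lower: Psma4 had 66.0, 36.6 and 68.3 RPKM, Psma3 had 24.4, 36.9 and 24.0, and Psma1, Psma2 and Psma5 lay between 11.2 and 19.9. Psma8 made up 33.8%, 30.1% and 48.6% of the summed RPKM of the 8 alpha ring genes.

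The gap between the paralogues was wider in the IPs. Psma8 had 201, 223 and 254 RPKM in the Miwi +/-, Miwi ADH/- and Miwi -/- IPs, while Psma7 had 0.227 RPKM (1 read), 2.78 RPKM (22 reads) and no read at all. The ratio of Psma8 to Psma7 was 80.0 in the Miwi ADH/- IP (52.7 to 128), and its interval did not overlap that of any input. In the Miwi +/- IP it was 882, with an interval from 158 to 34873 because a single Psma7 read stands below it. In the Miwi -/- IP Psma8 was at least 264 times Psma7, taking 3 reads, or 0.963 RPKM, as the most that a count of 0 in that library allows.

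**Figure D2:**
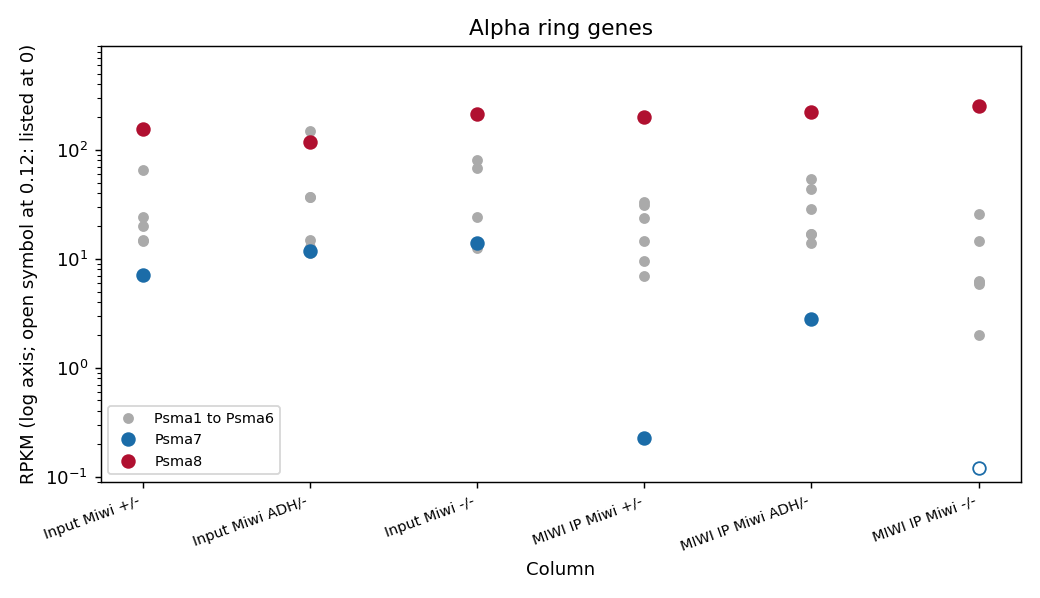
RPKM of the 8 alpha ring genes in each column on a log axis, with 1 symbol per gene and column and no error bars; an open symbol marks a gene listed at 0. Psma8 is the highest and Psma7 the lowest gene in all 3 IPs, whereas Psma6 (grey) lies above Psma8 in the Miwi ADH/- input and behind its symbol in the Miwi +/- input.

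On the deposited scale the median proteasome message lay below input in the IP of every genotype. In Miwi +/-, the median difference of IP minus input in log2(RPKM + 1) was -0.98 over the members, beside -0.77 for all kept genes. No member was at least 2-fold higher in the IP, against 4.24% of all kept genes, and 15 of 32 were at least 2-fold lower, against 40.6% of all kept genes. The members' share lay near that background, and 11 members stood above the all-gene median and 21 below. Relative to that median, 2 members were at least 2-fold higher (15.4% of all kept genes) and 5 at least 2-fold lower (15.5%). By counting error, 2 ratios lay above equality (11.2% of all kept genes), 27 below (61.1%) and 3 included it.

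The members farthest below input in Miwi +/- were Psma7, Psma6 and Psmd8. Psma6, an alpha ring gene, had 158 RPKM in the input and 31.2 in the IP, 5.06-fold lower (4.26 to 6.05). Psmd8 had 116 RPKM in the input and 24.3 in the IP, 4.79-fold lower (4.15 to 5.56). Psma7, with its single IP read, differed by -2.73 in log2(RPKM + 1). These 3 genes lie at opposite ends of the input order, so the distance did not follow the input level among them. At the other end, Psma8 was 1.29 times its input (1.20 to 1.39) and Psmc6 1.24 times (1.02 to 1.503). They were the 2 members whose interval lay above equality.

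In Miwi ADH/-, IP and input were closer. The median member differed by -0.34, beside -0.41 for all kept genes. No member was at least 2-fold higher in the IP (4.83% of all kept genes) and 7 were at least 2-fold lower (25% of all kept genes), which for both is near the background or below it. There were 18 members above the all-gene median and 14 below, with 2 at least 2-fold above it (12% of all kept genes) and 4 at least 2-fold below it (13.4%). The 7 lower genes were Psma6, Psma7, Psmb3, Psmc2, Psmd2, Psmd4 and Psmd8, and each of them was at least 2-fold lower in the other genotypes too. Psmd8 was the farthest, with 118 RPKM in the input and 27.3 in the IP (4.32-fold lower, 3.86 to 4.85), followed by Psma7 (4.21-fold, 2.49 to 7.32). Psmc6 was 2.08 times its input (1.72 to 2.53) and Psma8 1.88 times (1.74 to 2.04). In all, 5 intervals lay above equality (16.6% of all kept genes) and 18 below (49.1%). Besides these 2 genes, Psma1, Psmd3 and Psmd7 had intervals above it, at 1.496 (1.11 to 2.04), 1.36 (1.02 to 1.82) and 1.24 (1.04 to 1.49) times their input.

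In the Miwi -/- background IP, proteasome messages lay farther below input than in the other genotypes on the deposited scale. The median member differed by -2.34, beside -1.37 for all kept genes. There were 26 members at least 2-fold lower (60.9% of all kept genes) and 0 at least 2-fold higher (3.67% of all kept genes), with 24 members below the all-gene median and 8 above. Relative to that median, 3 were at least 2-fold higher (23.6% of all kept genes) and 15 at least 2-fold lower (25%). By counting error, 2 ratios lay above equality (6.83% of all kept genes) and 29 below (70%). The gap of -0.97 between the medians depended on the scale. It was -0.37 with a pseudocount of 0.1 RPKM, -0.47 among genes of at least 5 RPKM, -0.33 after size-factor scaling and -0.44 after scaling the columns to equal totals, but -1.78 against all genes without the filter. The shallow depth of this IP moves with the result. By its RPKM steps, its library total was 0.557 of that of the Miwi +/- input, while listed genes held 761525 against 3918947 reads. A smaller share of its reads thus lay in listed genes, which moves with the result as well. The part of either was not tested.

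Several genes with ordinary input levels were almost absent from that IP. Psmb2 (ENSMUSG00000028837), a structural beta subunit, had 35.8 RPKM in the Miwi -/- input and 0.680 in its IP, a ratio of 52.6 to 1 that rests on 2 IP reads (14.3 to 437). Psmb5 had 17.4 RPKM from 103 reads in the input and no read in the IP, at least 20.2-fold lower when 3 reads are taken as the limit of a count of 0. Psma7 was at least 14.5-fold lower by the same rule. Psmd12, a lid subunit, had 32.2 RPKM in the input and 1.25 in the IP (25.7-fold lower, 13.4 to 56.7), from 9 IP reads. In the Miwi +/- and Miwi ADH/- IPs, Psmb2 had 20.005 and 25.9 RPKM, Psmb5 12.8 and 19.3 RPKM, and Psmd12 16.1 and 21.1 RPKM. Psma7 was low there too, at 0.227 RPKM (1 read) and 2.78 RPKM (22 reads).

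Psma8 and Psmc6 lay above input in the Miwi -/- IP, and the interval of Psma3 included equality. Psma8 had 215 RPKM in the input and 254 in the IP, 1.18 times as high (1.10 to 1.27). Psmc6 had 12.01 and 21.3 RPKM, 1.78 times as high (1.44 to 2.18), and Psma3 had 24.0 and 25.9 RPKM (1.08, 0.845 to 1.37). Psma8 alone supplied 1369 of the 3575 member reads in this IP, or 38.3% (36.7 to 39.9), against 18.0% (17.2 to 18.8) in the Miwi +/- IP and 16.3% (15.7 to 16.8) in the Miwi ADH/- IP. In the inputs it supplied 6.68%, 5.95% and 9.10%. This share is a ratio within a column and does not depend on how columns are scaled. Without Psma8, the other 31 genes took 0.290% of listed reads in the Miwi -/- IP (0.278 to 0.302), against 0.402% (0.393 to 0.412) in Miwi +/- and 0.422% (0.416 to 0.429) in Miwi ADH/-, and 0.503% to 0.536% in the inputs.

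**Figure D3:**
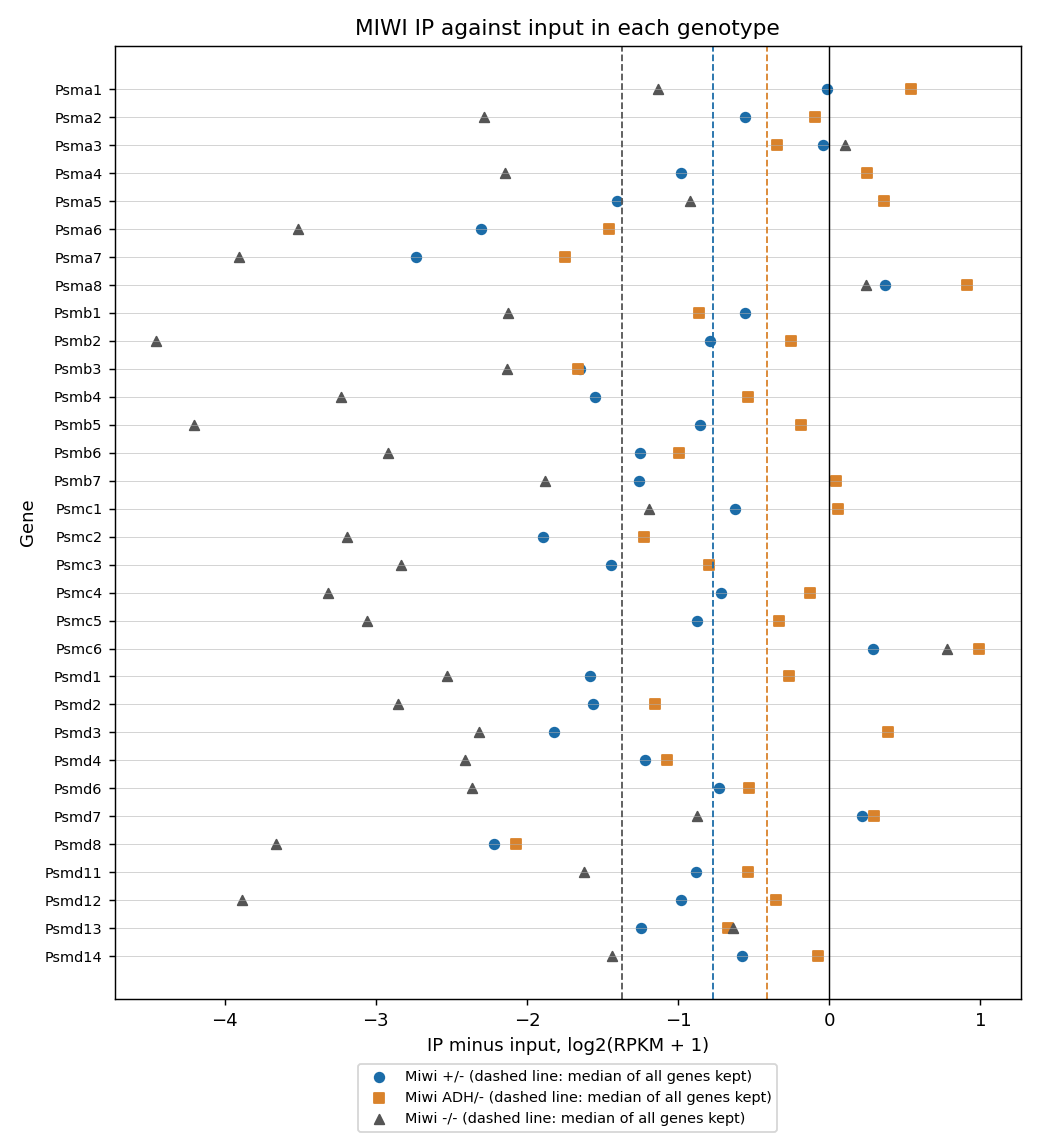
Difference between IP and input in log2(RPKM + 1) for each of the 32 genes in the 3 genotypes, with the median of all kept genes of each genotype as a dashed vertical line in its colour. Most genes lie left of 0, farthest in Miwi -/-, and Psma8 and Psmc6 are the 2 genes right of 0 in all 3 genotypes.

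Across genotypes, Psma8 and Psmc6 were thus the 2 members above input in Miwi +/-, Miwi ADH/- and Miwi -/- alike, on the deposited scale and with a pseudocount of 0.1 RPKM. They stood at percentiles 87.3, 94.1 and 90.1 (Psma8) and 85.8, 95.1 and 95.04 (Psmc6) of all kept genes in the order named. After either rescaling of the columns there were 7 such members, with Psma1, Psma3, Psmc1, Psmd7 and Psmd14 added. They differ in input level, with a mean of 163 RPKM for Psma8 and 12.1 RPKM for Psmc6, and in the ring they belong to. Both were also high in the IP without MIWI. On the deposited scale 22 members lay below input in all 3 genotypes, against 10 after size-factor scaling and 9 with equal totals.

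The IP of Miwi +/- was next set against the background IP, each relative to its own input. RPKM is scaled to the reads of a library, so this compares shares of libraries and not amounts of RNA recovered. The difference of the 2 differences is called enrichment here. The median member was 1.18 higher in Miwi +/- than in Miwi -/- on the log2 scale, beside 0.67 for all kept genes. The gap of 0.51 between these medians was 0.26 with a pseudocount of 0.1 RPKM, and ran from 0.14 to 0.93 under the alternatives. There were 20 members at least 2-fold higher (39.3% of all kept genes) and 0 at least 2-fold lower (9.56%), and 23 stood above the all-gene median. Relative to that median, 8 members were at least 2-fold higher (21.4% of all kept genes) and 3 at least 2-fold lower (20.1%). The highest values were those of Psmb2 (3.66), Psmb5 (3.35), Psmd12 (2.90) and Psmc4 (2.60), the first 3 of which have at most 9 reads in the Miwi -/- IP and Psmc4 15. These values rest on the few reads of that 1 library. The lowest were Psmd13 (-0.61), a lid subunit, and Psmc6 (-0.49), followed by Psma5 (-0.48) and Psma3 (-0.15). Psma8 was at 0.13, the 32.2 percentile of all kept genes, and turned to -0.92 with size factors and -0.58 with equal totals.

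The enrichment of Miwi ADH/- over the same Miwi -/- columns had a member median of 1.88, beside 1.06 for all kept genes. Here 27 members were at least 2-fold higher (51.9% of all kept genes), 0 at least 2-fold lower (7.3%), and 27 stood above the all-gene median. Relative to that median, 11 were at least 2-fold higher (20.1%) and 2 at least 2-fold lower (21.7%). Psmb2 (4.20), Psmb5 (4.01), Psmd12 (3.53) and Psmc4 (3.19) were the highest here as well. The comparison shares the Miwi -/- columns with the one before, so this is no independent result. Psma3 (-0.45) and Psmd13 (-0.03) were the lowest. Psma8 was at 0.67, the 37.7 percentile, and turned to -0.83 with size factors and -0.34 with equal totals. The gap of 0.82 between member and all-gene medians was 0.38 with a pseudocount of 0.1 RPKM and 0.28 after size-factor scaling. A pseudocount of 1 RPKM understates the change of low genes, and the median member lies above the median kept gene in level. The shares of members and of all kept genes past 2-fold are thus not on equal terms in either enrichment over Miwi -/-.

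Psmd13 and Psma3, which were among the lowest members in both enrichments, are given by column. Psmd13 had 20.5, 23.9 and 31.5 RPKM in the Miwi +/-, Miwi ADH/- and Miwi -/- IPs, from inputs of 50.1, 38.8 and 49.6 RPKM. Psma3 had 23.7, 28.8 and 25.9 RPKM in the IPs, from inputs of 24.4, 36.9 and 24.0 RPKM. Psmd13 was thus highest in the IP without MIWI, and Psma3 there lay between its levels in the other IPs. Relative to input and to all kept genes, both lay below the all-gene median in the enrichment over Miwi -/-, in Miwi +/- and in Miwi ADH/-, under each of the 4 scalings and pseudocounts.

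Between the IPs that contain a MIWI protein, the Miwi ADH/- columns gave the higher values for 29 of 32 members on the deposited scale. Most kept genes did the same, with 32.1% of them below 0. After size-factor scaling 22 members were higher. The enrichment of Miwi ADH/- over Miwi +/- had a member median of 0.57, beside 0.38 for all kept genes, and 23 members stood above the all-gene median. It was at least 2-fold for 6 genes (20.5% of all kept genes): Psma4, Psma5, Psmb4, Psmb7, Psmd1 and Psmd3. No member was at least 2-fold lower (7.56%). Relative to the all-gene median 2 members remained at least 2-fold higher, Psma5 and Psmd3, against 10.6% of all kept genes. All 6 ATPase genes stood above the all-gene median, within a narrow range of 0.54 to 0.71. They did so under each of the 4 scalings and pseudocounts tried. This enrichment subtracts the inputs, and in Miwi ADH/- against Miwi +/- input all 6 lay below the all-gene median, so these results are linked.

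Psmd3 had the highest value, 2.21, and Psma5 followed with 1.77. Psmd3 had 18.3 RPKM in the Miwi +/- input and 4.47 in its IP, but 6.66 in the Miwi ADH/- input and 9.04 in its IP. Psma5, an alpha ring gene, had 19.9 and 6.89 RPKM in Miwi +/- and 12.8 and 16.7 in Miwi ADH/-. For both genes the input was lower and the IP higher in Miwi ADH/-. Psmb1 and Psma3 were the lowest, at -0.30 each, and Psma8 was at 0.54.

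The inputs were also set side by side, with 1 column per genotype, so the differences are between libraries and cannot be assigned to genotype. Between the Miwi -/- and Miwi +/- columns the median difference of the members was -0.02, as it was for all kept genes (-0.02). No member differed by 2-fold or more, against 4.47% of all kept genes higher and 10.6% lower. Relative to the all-gene median the count was also 0 in both directions, against 4.62% of all kept genes higher and 10.3% lower. The intervals of 18 members included equality, with 8 above it (22.3% of all kept genes) and 6 below (26.6%). The largest differences were in the alpha ring, where Psma6 was 1.96-fold lower in Miwi -/- (1.75 to 2.19) and Psma7 1.95-fold higher (1.31 to 2.94). Psma8 was 1.38-fold higher (1.29 to 1.48) and the ATPase gene Psmc4 1.40-fold higher (1.18 to 1.66).

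The Miwi ADH/- input differed more. Against Miwi +/-, the median member was at -0.29, beside -0.16 for all kept genes, and 24 of 32 members were lower in Miwi ADH/-, as were 60.3% of all kept genes. After size-factor scaling 17 members were lower and 15 higher. At least 2-fold lower were 2 members, both of the regulatory particle, against 7.42% of all kept genes, and none was 2-fold higher, against 7.8%. Psmd3 had 18.3 RPKM in Miwi +/- and 6.66 in Miwi ADH/- (2.75-fold lower, 2.095 to 3.65). Psmd14, the enzyme that removes ubiquitin from substrates, had 51.0 and 23.6 RPKM (2.16-fold lower, 1.70 to 2.76). Relative to the all-gene median, 1 member was at least 2-fold higher, Psmb1 (10.4% of all kept genes), and 1 at least 2-fold lower, Psmd3 (4.46%). The intervals of 16 members lay below equality (35.6% of all kept genes), 4 above (20%), and 12 included it. The 4 above were Psmb1 (1.86-fold, 1.69 to 2.05), Psma7 (1.64-fold, 1.05 to 2.56), Psma3 (1.51-fold, 1.24 to 1.85) and Psmb6 (1.14-fold, 1.05 to 1.23), all of the core particle.

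The beta ring and the ATPase ring lay mostly on different sides of the all-gene median, and the alpha ring was divided. All 6 ATPase genes lay below the all-gene median, from -0.67 (Psmc4) to -0.23 (Psmc6), and 8 of the 11 other regulatory particle genes did. Both counts were the same under each of the 4 scalings and pseudocounts. Of the 7 beta ring genes, 6 lay above the all-gene median on the deposited scale, and 5 did under all 4 settings. Some margins were small. Relative to that median the beta ring genes ran from -0.02 (Psmb2) to 1.05 (Psmb1), with Psmb7 at 0.02 and Psmb5 at 0.05. The ATPase genes ran from -0.51 (Psmc4) to -0.06 (Psmc6). The 7 alpha ring genes other than Psma8 were spread, with 4 above and 3 below, and Psma8 was below, 1.31-fold lower than in Miwi +/- (1.21 to 1.43). No replicate check stands behind this split, and its ATPase part shares both input columns with the enrichment of Miwi ADH/- over Miwi +/-.

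Against Miwi -/-, the Miwi ADH/- input gave a median of -0.26, beside -0.18 for all kept genes. Psmc4 was the single member at least 2-fold lower (6.54% of all kept genes), with 19.8 RPKM in Miwi ADH/- against 44.9 in Miwi -/- (2.27-fold, 1.82 to 2.85), and none was 2-fold higher (12.6%). Relative to the all-gene median, Psma6 was the single member at least 2-fold higher (14.8% of all kept genes) and 0 were at least 2-fold lower (3.7%). By counting error 17 members lay below equality (36.5% of all kept genes) and 5 above (21.7%). Psmd14 and Psmd3 followed, 1.95-fold (1.53 to 2.51) and 1.94-fold lower (1.46 to 2.61), and 9 of the 11 other regulatory particle genes lay below the all-gene median under all 4 settings. Psma8 was 1.82-fold lower (1.68 to 1.98), while Psma6 was 1.86-fold higher (1.65 to 2.09). Since this comparison and the former share the Miwi ADH/- column, the recurrence of Psmd3, Psmd14 and Psmc4 is not independent.

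**Figure D4:**
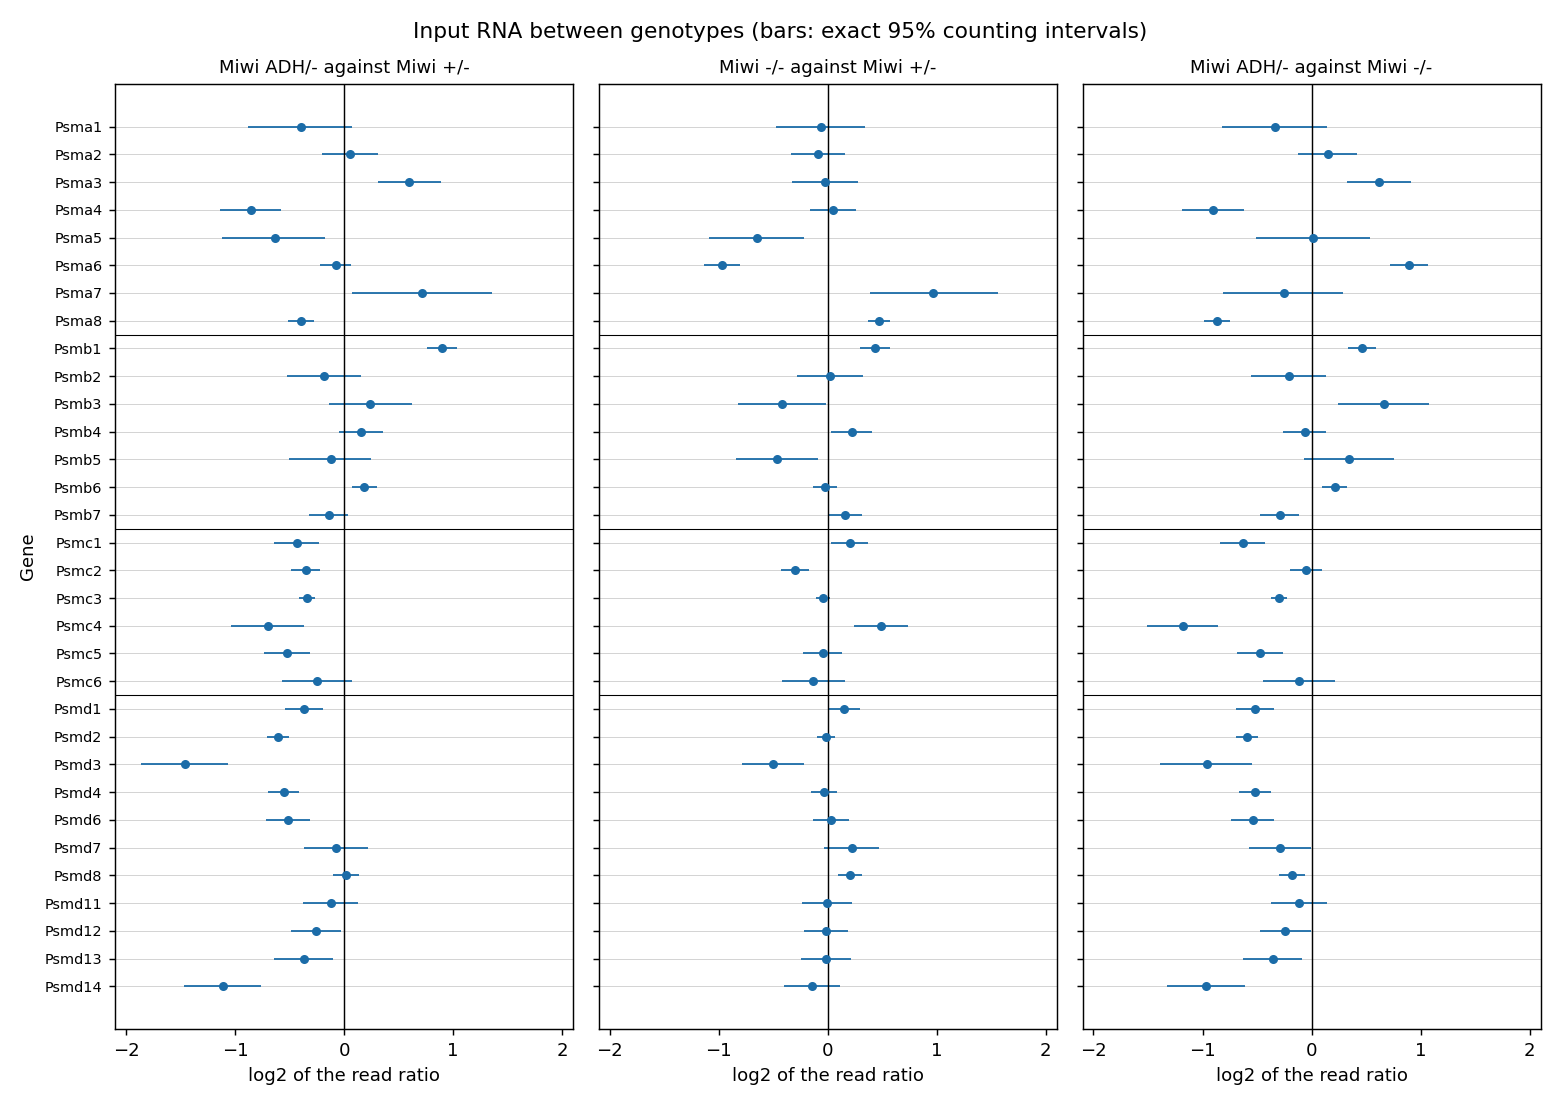
The log2 of the read ratio between input columns for each of the 32 genes, with bars for the exact 95% counting intervals and a vertical line at equality. The regulatory particle genes lie mostly left of equality for Miwi ADH/- against Miwi +/-, with Psmd3 and Psmd14 farthest, and Psma6 and Psma7 lie at opposite ends for Miwi -/- against Miwi +/-.

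Over the inputs as a whole, 19 members stayed within 1.5-fold between the highest and lowest genotype and 29 within 2-fold. The exceptions were Psmd3 (2.75-fold), Psmc4 (2.27-fold) and Psmd14 (2.16-fold), all of the regulatory particle. The steadiest genes were Psmd11, a lid subunit (31.2, 28.7 and 31.0 RPKM in Miwi +/-, Miwi ADH/- and Miwi -/-), and Psma2 (14.4, 14.96 and 13.5 RPKM). Between relative gene length and the log2 difference, Pearson's r lay between -0.14 and 0.19 over the 32 genes in the 9 comparisons. The rank correlation lay between -0.19 and 0.21, both as a description.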

How the data were processed

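The 12 samples fall into 6 groups by genotype and by IP or input, per the labels. The values are RPKM that the authors computed and deposited, with 1 column for each group. No source used here says whether a column is 1 sample or a pool. The Miwi +/- columns carry the unit per the file headers, and it was assumed for the other 4. Per the submitters' processing notes, TopHat, Bowtie and build mm9 were used, with neither version nor role stated. The counting tool was not given in the sources used here, nor was the annotation.

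Whole reads were recovered from the RPKM steps: for 17452 of 17452 genes (100%) with values in more than 1 column every value came out whole within 0.002 reads. Where a gene had a single value (2893 genes), it was taken as 1 read. Many multipliers were tried for each gene, so whole values do not by themselves show that the reads are right. On a table simulated from the recovered reads, all reads were right for 96.6% of 12232 kept genes and for 32 of 32 members. Library totals, gene lengths and the depth behind each member follow from these reads.

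The planned analysis for 1 column per group was used: differences of log2(RPKM + 1), with a pseudocount of 1 RPKM, over 12246 genes that reached 1 RPKM in 2 columns or more. This scale understates the change of low genes. Genes past 2-fold, and those whose interval excluded equality, were counted for the members and for all kept genes. Read ratios have exact Clopper-Pearson 95% intervals conditional on the summed reads, and shares have exact binomial ones. Both measure counting error alone, because reads copied by PCR are not separate molecules. A count of 0 was bounded at 3 reads per library. The work used Python 3.11.15, numpy 2.4.6, pandas 2.3.3, scipy 1.17.1 and matplotlib 3.10.9.

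Any of the 32 genes could be named. By the planned naming rule, each comparison took Psma8, the 2 highest, the 2 lowest and members at least 2-fold from the list's median. Further members are named where a count or an interval picks them out. Lists of related proteasome genes and cell type markers, and the targeted gene, are not analysed here, since no table pairs their symbols with the Ensembl IDs, so the labelled cell type and genotypes were not checked. The members and lists were chosen with earlier results of these data known, and the motifs after the values had been seen. Alternatives were another pseudocount (0.1 RPKM), no filter, a filter of 5 RPKM, size factors (median of ratios), equal RPKM totals, genes in the length range of the members, the list without Psma8 and, added after seeing the data, counts relative to the all-gene median.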

Additional observations from a re-analysis of the deposited data

Results flagged for a closer look

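Psmd3 lay above input in Miwi ADH/- and below it in the other genotypes by the counting intervals of single columns. Its log2 difference of IP minus input was higher in Miwi ADH/- by 2.70 against Miwi -/- and by 2.21 against Miwi +/-. The Miwi ADH/- input of Psmd3 is also its lowest input, at 6.66 RPKM from 68 reads. Psma1 lay above input in Miwi ADH/- and below it in Miwi -/-, with a difference of 1.68, and Psmd7 likewise, with a difference of 1.18. These differences between genotypes were not tested, since each group has 1 column. Under size factors and equal totals Psma1 lay above input in Miwi -/- too, by 0.62 and 0.33, and so did Psmd7, by 0.96 and 0.67.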

How the results depend on the processing

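Shifts of the gap between the member median and the all-gene median were set against the median half-width of the members' single-gene counting intervals. For enrichment the half-widths of both IPs were combined. Under the alternatives 55 of 63 values stayed within it and 8 moved. This is a lenient mark, since it is not the counting error of a median over 32 genes. The enrichment gap of Miwi +/- over Miwi -/- stayed within its half-width of 0.49, although it went from 0.51 to 0.14 at the lowest. Counts at 2-fold stayed within 1.5 times in 102 of 144 values. Of 195 values for the members taken by the naming rule, 121 stayed within counting error and 70 moved. The other 4 had been past 2-fold and changed sign. In IP against input of Miwi -/-, Psma1 turned to 0.62 and Psmc1 to 0.69 above input with size factors. With equal totals they turned to 0.33 and 0.39. Over all 288 values of the 32 members, past 2-fold or not, 72 changed sign with size factors, 46 with equal totals and 1 with the pseudocount of 0.1 RPKM, of which 12, 3 and 0 had been past 2-fold. For IP against input, the gap of -0.97 in Miwi -/- became -0.37 with a pseudocount of 0.1 RPKM, -1.78 with no filter, -0.47 with the 5 RPKM filter, -0.33 with size factors and -0.44 with equal totals. The gap of -0.21 in Miwi +/- became -0.66 with no filter. The enrichment gap of Miwi ADH/- over Miwi -/- became 1.43 with no filter and 0.28 with size factors.

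With size factors, members at least 2-fold higher and lower in the IP than in the input numbered 3 and 5 in Miwi +/-, 2 and 4 in Miwi ADH/-, and 4 and 11 in Miwi -/-. With equal totals they numbered 3 and 5, 3 and 3, and 3 and 14, and relative to the all-gene median 2 and 5, 2 and 4, and 3 and 15. With a pseudocount of 0.1 RPKM, 1 member was higher in Miwi ADH/-. Between inputs, Miwi ADH/- had 1 member higher and 1 lower than Miwi +/-, and 1 higher and 0 lower than Miwi -/-, both with size factors and relative to the all-gene median. With equal totals 1 was lower in the Miwi -/- input than in Miwi +/-. Enrichment of Miwi +/- over Miwi -/- had 6 higher and 4 lower with size factors, and 8 and 3 both with equal totals and relative to the median. Enrichment of Miwi ADH/- over Miwi -/- had 9 and 3, 14 and 2, and 11 and 2 in the same order. Enrichment of Miwi ADH/- over Miwi +/- had 2 higher with size factors and relative to the median. With equal totals the median member had 32.4 RPKM in the Miwi +/- IP and 23.9 in the Miwi -/- IP, and 36.1, 24.9 and 34.3 in the Miwi +/-, Miwi ADH/- and Miwi -/- inputs. Size factors and equal totals rescale the columns, and the choice between them was not tested.

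No paired analysis was possible because each group has 1 column with no replicate number, and leaving out a replicate was not run for the same reason. Depth limits the members with few reads: in the Miwi -/- IP Psma7 and Psmb5 have none and Psmb2 has 2.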
